A study of Mus musculus with 64 samples.

Results

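Homer1, Homer2 and Homer3 encode the Homer scaffold proteins of the postsynaptic density. All entries of the 64 isoform tables with these gene names were taken, which gave 3 genes of 46785 and 21 transcripts of 112714. Homer1 had 11 transcripts, Homer2 had 2 and Homer3 had 8. FPKM, the deposited level, counts fragments by transcript length and by the depth of the library. For testing, a transcript had to reach a mean of 0.1 FPKM in either tissue, and 10 Homer1, 2 Homer2 and 6 Homer3 transcripts passed.

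Homer proteins bind proline-rich stretches of metabotropic glutamate receptors, Shank proteins, inositol trisphosphate receptors and ryanodine receptors through an amino-terminal EVH1 domain. Long forms carry a carboxy-terminal coiled coil through which they join into multimers and hold these partners together. The short form Homer1a lacks the coiled coil, is made from the same gene by use of an early end of transcription after neuronal activity, and competes with the long forms for the partners. In the striatum, Homer1a is known as an immediate early product of stimulant and antipsychotic treatment.

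The libraries came from the nucleus accumbens (NAc) and the prefrontal cortex (PFCx) of adult male C57BL/6N mice, 8 to 10 weeks old, taken 2 h after a single intraperitoneal injection. The mice received haloperidol at 1 mg/kg, risperidone at 0.5 mg/kg, both antipsychotics, mianserin at 20 mg/kg or venlafaxine at 16 mg/kg, both antidepressants, the psychostimulant methamphetamine at 2 mg/kg, the psychotomimetic ketamine at 20 mg/kg, or saline. Each drug had 4 libraries per tissue and saline had 8. Haloperidol and risperidone were given in saline acidified with a drop of HCl, which the saline group as described did not hold, so this vehicle and these 2 drugs cannot be told apart. The sources do not say whether a library is 1 animal or several, nor whether NAc and PFCx were taken from 1 set of animals, so p-values measure the spread between these libraries.

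Aligned bases per library, estimated from the deposited coverage and FPKM, ranged from 1.52 to 3.26 gigabases. The saline labels name 2 sets, I and II. The number of transcripts above 0 in the NAc was 85287 to 87827 in saline set I and after haloperidol, risperidone and methamphetamine, and 107099 to 110556 in saline set II and after mianserin, venlafaxine and ketamine. In the PFCx it was 108556 to 110852 in all libraries. Each drug was therefore also compared with the saline set on its own side of this division. Of 8 markers of striatal projection neurons, 8 were higher in every NAc library than in every PFCx library, with a summed FPKM of 447.9 to 728.6 against 22.2 to 78.8. Of 6 cortical excitatory markers, 5 were lower in every NAc library, with sums of 27.0 to 84.7 against 159.9 to 227.7. The 4 oligodendrocyte markers were higher in every NAc library, with sums of 486.9 to 695.0 against 92.2 to 207.6.

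Homer1 lies on the plus strand of chromosome 13 (GRCm38), and the leading short transcript parts from the full-length one at a splice donor. The 4 short transcripts end at least 10 kb before the last Homer1 end and the 7 long ones within 5 kb of it. The leading short transcript, ENSMUST00000102752 (chr13:93304495-93360462, 5 exons, 5713 bases, 186 codons), is Homer1a. It reads past base 93356079, where exon 5 of the full-length transcript ENSMUST00000080127 (chr13:93304799-93403681, 10 exons, 3052 bases, 366 codons) ends, into intron 5 of that transcript (93356080-93386344). Its last exon is 4523 bases long, and 4383 of these bases lie inside that intron and in no other Homer1 transcript. ENSMUST00000109492 (203 codons) and ENSMUST00000109493 (233 codons) splice from the same donor to exons starting at 93366243 and 93366278, also inside intron 5. ENSMUST00000109494 (193 codons) joins the exon at 93386345 as the full-length transcript does and ends at 93386744. The branch is printed because 3 of the short forms part from the full-length one there, while ENSMUST00000109494 parts from it further on. Lower case is the shared end of exon 5 and capitals are what each transcript holds next.
ENSMUST00000080127: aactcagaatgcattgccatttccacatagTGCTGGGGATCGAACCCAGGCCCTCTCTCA
ENSMUST00000102752: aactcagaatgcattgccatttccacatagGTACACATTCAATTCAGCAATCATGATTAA
ENSMUST00000109492: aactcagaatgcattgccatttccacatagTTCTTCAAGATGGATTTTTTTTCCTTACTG
ENSMUST00000109493: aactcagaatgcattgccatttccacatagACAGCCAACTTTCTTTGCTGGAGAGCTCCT

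**Figure D1:**
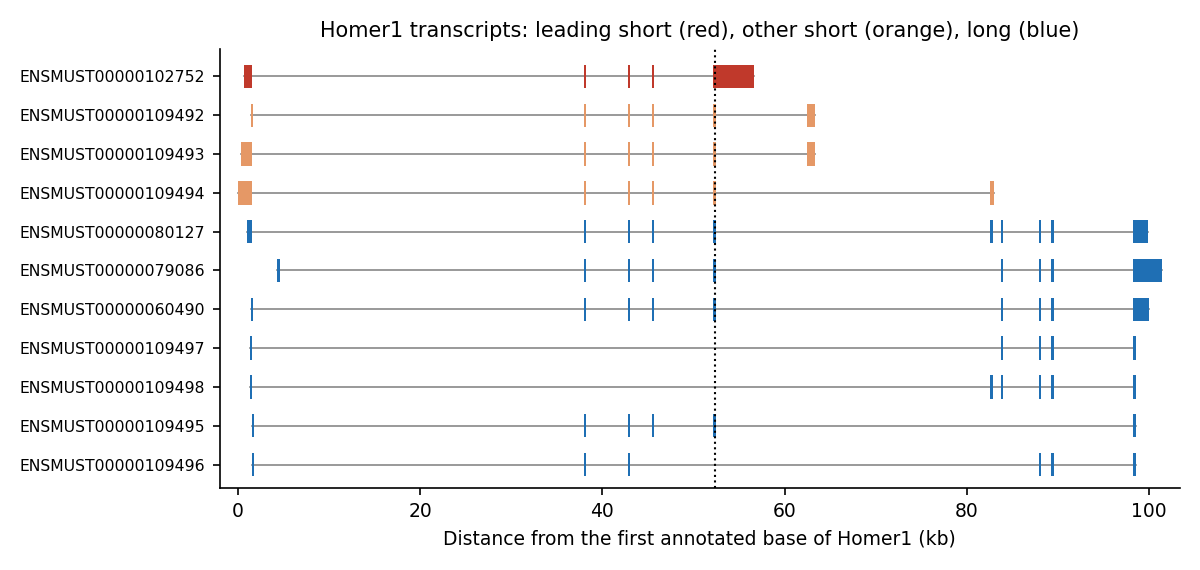
Exons of the 11 Homer1 transcripts in GENCODE vM21 by distance along the gene in kb, with the leading short transcript, the other short transcripts and the long transcripts in separate colours and a dotted line at the branch. The leading short transcript runs on from the branch for 4383 bases, while the full-length transcript ENSMUST00000080127 resumes 30266 bases away.

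Of the 11 transcripts, 10 start in or just downstream of 1 promoter region, and the long transcript ENSMUST00000079086 starts at a second. The first region, chr13:93303507-93303806 from RefSeq on GRCm38.p6, is printed because it lies upstream of both the leading short and the full-length transcript. ENSMUST00000109494 starts inside it at 93303757. The leading short transcript starts at 93304495 and the full-length one at 93304799, both beyond its end, so their use of this promoter is not shown. Capitals mark TGACG, the core of the cyclic AMP response element, searched on both strands.
Homer1 promoter: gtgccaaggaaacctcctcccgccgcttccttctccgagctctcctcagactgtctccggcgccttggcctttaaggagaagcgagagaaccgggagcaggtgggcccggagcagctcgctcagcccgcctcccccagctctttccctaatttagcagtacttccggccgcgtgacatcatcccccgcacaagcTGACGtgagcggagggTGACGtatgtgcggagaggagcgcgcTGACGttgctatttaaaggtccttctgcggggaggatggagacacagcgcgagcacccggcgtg
It held 3 copies, and the second Homer1 window, the 2 Homer2 windows and the Homer3 window held 0. Of 32851 promoter windows of this length, 20.8% held TGACG on either strand and 1.03% held it at least 3 times. The full site TGACGTCA was in 1.79% of the windows and in none of the Homer windows.

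The leading short Homer1 transcript was higher than after saline in the NAc after haloperidol, methamphetamine and risperidone and in the PFCx after methamphetamine. In the NAc, the 8 saline libraries gave 5.02 to 6.51 FPKM with a median of 5.99. The haloperidol libraries gave 13.5, 13.4, 12.03 and 14.8 FPKM. The methamphetamine libraries gave 11.4, 11.6, 10.1 and 11.5 FPKM. The risperidone libraries gave 8.81, 9.82, 8.83 and 7.57 FPKM. These 3 groups stood clear of saline, and the methamphetamine and haloperidol groups stood clear of risperidone and of each other. Ketamine libraries at 8.15, 6.54, 7.89 and 6.52 FPKM began just above the highest saline library. Venlafaxine (6.31 to 6.55 FPKM) and mianserin (5.38 to 6.37 FPKM) overlapped saline.

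The limma fit used log2(FPKM + 1), a scale on which changes of low values look smaller than they are. There, the NAc log2 difference of the leading short Homer1 transcript from saline was 1.06 ± 0.07 (SE) after haloperidol (limma adjusted p = 1.98e-10), 0.82 ± 0.07 after methamphetamine (1.02e-07) and 0.50 ± 0.07 after risperidone (0.000477). This transcript was the 1 of 18 tested Homer transcripts called in each of these comparisons, where 0.188%, 0.051% and 0.16% of 86331 transcripts were called. Ketamine gave 0.26 (adjusted p = 0.117), venlafaxine 0.11 (0.528) and mianserin 0.03 (0.899), so that 0 of 18 Homer transcripts were called beside backgrounds of 0.2%, 0.0579% and 0.504%. At an unadjusted limma p, the ketamine value was 0.000904 and the others were above 0.1. Against the saline set on the same side of the division the 3 called differences were 1.12, 0.87 and 0.55 and remained called, beside 0.0811%, 0.0301% and 0.0695% of all transcripts. With each library rescaled to the same 75th percentile of its values above 0, a point that follows the number of transcripts listed above 0 and shifted the median of all transcripts to between -0.10 and 0.11, methamphetamine gave 0.54 (adjusted p = 0.234) and risperidone 0.21 (0.44), while haloperidol stayed called at 0.73 (0.0273). Rescaled over the transcripts whose mean reached 1 FPKM, an alternative added after the data were seen, they gave 0.77 and 0.43 and stayed called. The summed FPKM of the cortical excitatory markers in the NAc had a mean of 74.0 after haloperidol (63.3 to 84.7) and 50.9 after saline (27.0 to 71.2), and its part in the haloperidol difference was not tested.

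In the PFCx the leading short Homer1 transcript passed the test after methamphetamine and after no other of the 6 drugs. The 8 saline libraries gave 6.497 to 11.6 FPKM with a median of 8.22, a wider spread than in the NAc. Methamphetamine libraries gave 20.02, 17.9, 15.3 and 13.8 FPKM, all above saline, with a log2 difference of 0.89 ± 0.10 (SE, limma adjusted p = 3.03e-05). It was again the 1 called of 18 Homer transcripts, against 0.108% of all. Haloperidol libraries at 12.1, 9.86, 11.04 and 10.6 FPKM overlapped the upper saline values, with a difference of 0.32 (adjusted p = 0.244). Ketamine gave 9.41 to 10.5 FPKM, risperidone 8.60 to 10.3, mianserin 8.55 to 9.88 and venlafaxine 7.56 to 8.58, with differences between -0.09 and 0.19 and adjusted p of at least 0.77. The lowest unadjusted limma p among these 5 drugs was 0.00426, for haloperidol. With these drugs 0 of 18 Homer transcripts were called, where the background was 0.0232% after haloperidol, then 0.158% (risperidone), 0.351% (mianserin), 0.00116% (venlafaxine) and 0.00347% (ketamine).

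The saline sets of the PFCx differed for this Homer1 transcript. Set I gave 6.497, 7.24, 7.55 and 7.86 FPKM and set II gave 9.69, 8.58, 10.1 and 11.6 FPKM, with no overlap. The two-sided exact permutation p of 0.0286 is the smallest that 4 against 4 libraries allow. In the NAc the means of the sets were 5.65 and 6.17 FPKM (exact permutation p = 0.143). The labels do not assign drugs to sets, and the PFCx showed no division by transcripts above 0. The assignment made in the NAc was carried over to the PFCx. In the fit of each drug against the saline set so assigned, the haloperidol libraries of the PFCx did not overlap set I and differed by 0.52 ± 0.09 (SE, limma adjusted p = 0.0873), and methamphetamine differed by 1.09 (4.21e-07). The 4 risperidone libraries also lay above set I, with a difference of 0.31 (adjusted p = 0.491). Of all transcripts, 0%, 0.0544% and 0.0394% were called in these 3 comparisons.

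**Figure D2:**
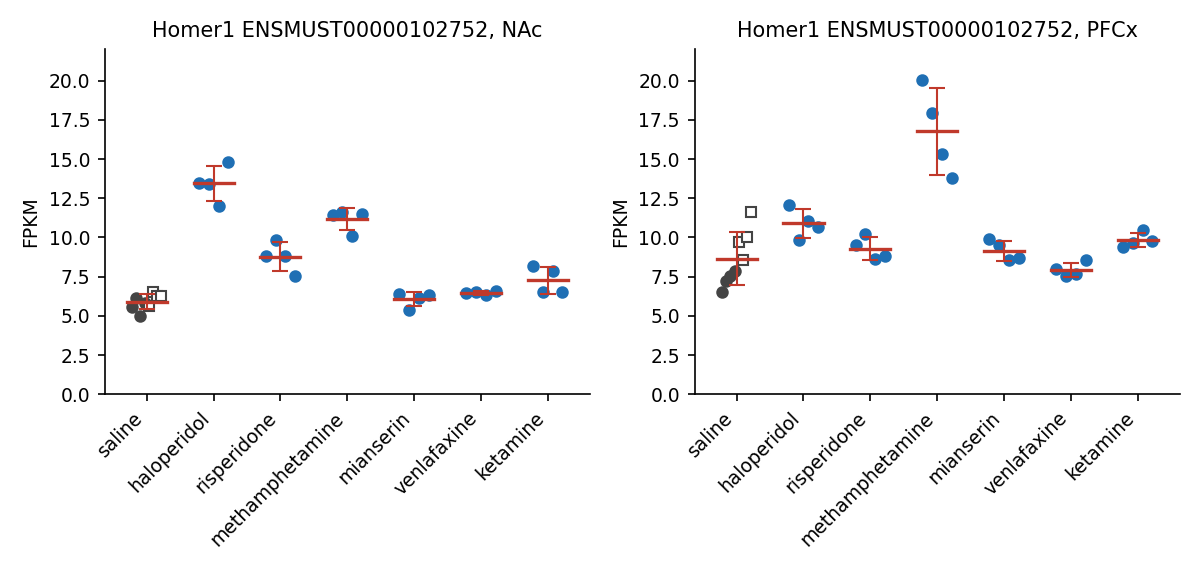
FPKM of the leading short Homer1 transcript in each of the 64 libraries, NAc and PFCx in separate panels and the groups along the x axis, with saline set I as filled grey circles, saline set II as open squares, drug libraries in blue and the mean ± SD in red. In the NAc the haloperidol libraries reach 12.03 to 14.8 FPKM against 5.02 to 6.51 after saline, and in the PFCx the methamphetamine libraries reach 13.8 to 20.02 while saline set II lies above set I.

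By mean level, the order in the NAc was haloperidol (13.4 ± 1.14 FPKM, SD, n = 4), methamphetamine (11.2 ± 0.706), risperidone (8.76 ± 0.92), ketamine (7.28 ± 0.864), venlafaxine (6.46 ± 0.108), mianserin (6.06 ± 0.461) and saline (5.91 ± 0.489, n = 8). No pair of neighbours in this order passed the threshold after adjustment over the 6 pairs (two-sided exact permutation test, lowest adjusted p = 0.0857 for n = 4 against 4). Haloperidol against methamphetamine and methamphetamine against risperidone each gave the smallest unadjusted exact p possible, 0.0286, with log2 differences of 0.25 and 0.32. In the PFCx the order was methamphetamine (16.8 ± 2.75), haloperidol (10.9 ± 0.911), ketamine (9.83 ± 0.447), risperidone (9.29 ± 0.743), mianserin (9.16 ± 0.642), saline (8.63 ± 1.70) and venlafaxine (7.95 ± 0.451). Again no neighbours passed (lowest adjusted exact permutation p = 0.171, n = 4 against 4), the first pair included, whose log2 difference was 0.57. Methamphetamine and haloperidol did not overlap there and gave the smallest exact permutation p possible (0.0286, n = 4 against 4), but 1 or 2 pairs at this p cannot pass an adjustment over 6.

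The haloperidol response of the leading short Homer1 transcript was larger in the NAc than in the PFCx in the main fit, with all saline libraries and no rescaling. The difference between the 2 responses was 0.74 ± 0.12 (log2, SE), with a limma interaction adjusted p of 0.00255, and this was the 1 called of 18 Homer transcripts beside 0.00811% of all. With the saline of the own set the difference was 0.60 (adjusted p = 0.0716), where 0.00579% of transcripts were called. Rescaled to the 75th percentile of values above 0 it was 0.45 (adjusted p = 0.383). Rescaled over the transcripts whose mean reached 1 FPKM it was 0.73 (0.06), so the call was lost in each of these settings. For methamphetamine the 2 tissues differed by -0.07 ± 0.12 (adjusted p = 0.953) and for risperidone by 0.38 ± 0.12 (0.576). Mianserin, venlafaxine and ketamine gave -0.06, 0.20 and 0.07 (adjusted p of 0.677 to 0.929). For these 5 drugs 0 of 18 Homer transcripts were called, and of all transcripts 0%, 0%, 0.0139%, 0% and 0.00232% in the order methamphetamine, risperidone, mianserin, venlafaxine and ketamine. At an unadjusted limma p, the risperidone value of this transcript was 0.00298 and the other 4 were above 0.1. After saline the transcript was lower in the NAc than in the PFCx, by 0.46 on the log2 scale (adjusted p = 0.0032), and with saline set I alone by 0.32 (0.0587). In these bulk samples, fewer cells of a type and less RNA per cell cannot be told apart. The marker sums given above differ between the tissues, and their part in this difference was not tested.

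The long Homer1 transcripts were called after no drug as a sum. This class is set by where a transcript ends. It holds the full-length forms but also models of 772 to 815 bases with 180 to 224 codons. The sum, and the ratio of short to long, are therefore not measures of the full-length forms alone. Their summed FPKM in the NAc was 28.0 ± 2.23 (SD, n = 8) after saline, 30.2 ± 1.70 after haloperidol, 29.3 ± 4.24 after methamphetamine and 27.6 ± 1.79 after risperidone. In the PFCx the sum was 28.9 ± 3.68 after saline and 33.3 ± 1.08 after methamphetamine. Every drug group overlapped saline, and no one of the 12 comparisons passed (two-sided exact permutation test on log2 values, lowest adjusted p = 0.469, lowest unadjusted p = 0.0525 for methamphetamine in the PFCx, n = 4 against 8). In the NAc the differences lay between -0.11 and 0.11 on the log2 scale. In the PFCx they lay between -0.21 after venlafaxine and 0.21 after methamphetamine. Against the own saline set these 2 groups did not overlap saline, at -0.32 and 0.32 (adjusted exact permutation p = 0.171, n = 4 against 4).

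The full-length transcript ENSMUST00000080127, with 366 codons, had 8.30 ± 0.711 FPKM (SD, n = 8) in the NAc after saline. After mianserin all 4 libraries exceeded the highest saline library, at 9.78 to 11.03 against 7.48 to 9.71 FPKM, with a log2 difference of 0.30 (limma adjusted p = 0.131). Haloperidol and methamphetamine gave means of 8.24 and 8.32 FPKM. ENSMUST00000079086, the long Homer1 transcript from the second promoter with 370 codons, had 6.504 ± 0.763 FPKM after saline and means of 6.47 to 6.95 after the drugs in the NAc. In the PFCx these 2 transcripts had 8.83 ± 1.24 and 6.32 ± 1.52 FPKM after saline.

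The remaining long Homer1 transcripts are short models of 772 to 815 bases and 1 near copy of the full-length form. ENSMUST00000109497 (180 codons) had 9.23 ± 3.46 FPKM (SD) over the 32 NAc libraries, from 0.634 to 16.3, and ENSMUST00000109498, which spans the same 93305103-93402270, had 0.907 ± 2.11 with 18 libraries under 0.01. ENSMUST00000109495 had a mean of 2.56 FPKM and ENSMUST00000109496 of 0.0621 FPKM, the latter listed at 0 in 21 NAc libraries. ENSMUST00000060490, with 354 codons, was listed at 0 in 19 NAc and 17 PFCx libraries, was 0.0013 FPKM at most, and was not tested. These models share all their bases with other Homer1 transcripts, and the deposited 95% bounds show how far they can be told apart. The median distance from value to bound was 8.45% of the value for the leading short transcript in the NAc, 11.2% for the full-length one, 20.8% for ENSMUST00000109497 and 1042% for ENSMUST00000109498.

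Among the other short Homer1 transcripts, the pair that splices into intron 5 was higher after haloperidol and methamphetamine in the NAc as a sum. ENSMUST00000109492 and ENSMUST00000109493 summed to 5.86 to 8.96 FPKM in the 8 saline libraries, with a mean of 7.35. Haloperidol libraries gave 8.13, 15.6, 11.01 and 14.1 FPKM, 1 of them inside the saline range, and methamphetamine libraries gave 10.6, 11.6, 12.7 and 10.1, all above it. The log2 differences were 0.64 and 0.56 (two-sided exact permutation p = 0.00808 and 0.00404, adjusted over 12 comparisons 0.0485 each, n = 4 against 8). Against saline set I alone they were 0.74 and 0.66, with adjusted exact permutation p of 0.137 and 0.114 (n = 4 against 4). The methamphetamine call was lost in 8 of the 12 fits that left out 1 library, namely each of the 8 saline libraries (0.53 to 0.60). The haloperidol call was lost in 11 of 12, without any 1 saline library or without haloperidol replicate 2, 3 or 4 (0.52 to 0.68).

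In the PFCx this Homer1 pair reached 13.2 to 17.1 FPKM after methamphetamine, against 6.54 to 13.9 after saline, a log2 difference of 0.56 (adjusted exact permutation p = 0.0808, n = 4 against 8). Saline set I had a mean of 7.61 FPKM and set II of 12.4 FPKM in the PFCx, without overlap (exact permutation p = 0.0286, the smallest possible for n = 4 against 4). Alone, ENSMUST00000109493 had 3.77 ± 0.296 FPKM (SD, n = 8) in the NAc after saline, 5.53 ± 1.04 after haloperidol and 5.73 ± 0.962 after methamphetamine, with limma log2 differences of 0.44 (adjusted p = 0.0667) and 0.49 (0.0637). When testing was limited to transcripts whose mean reached 1 FPKM, these passed with adjusted p of 0.0375 and 0.0357.

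ENSMUST00000109494 is the short Homer1 transcript that ends near base 93386744. Its NAc means were higher after the drugs on the side of saline set I than after those on the side of set II. Its means were 3.06 FPKM after haloperidol, 3.05 after risperidone and 3.35 after methamphetamine, and 1.10 after mianserin, 0.801 after venlafaxine and 0.991 after ketamine. Saline set I had 2.21 ± 0.370 FPKM and set II 1.47 ± 0.478 (SD, n = 4 each, exact permutation p = 0.0571). Both saline means lay between the drug means of either side, and the part of the sets in this split was not tested. In the PFCx its group means were 0.942 to 2.36 FPKM. Leaving out the leading short transcript, 0 of 54 comparisons over 9 Homer1 transcripts passed in each tissue by limma, and the lowest adjusted p was 0.0637 (NAc) and 0.187 (PFCx). At an unadjusted p under 0.05 there were 10 and 8. The share of all transcripts at that p is not given here, so these counts say nothing particular to Homer1.

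The balance of short to long Homer1, taken as a ratio within each library, differed between drug and saline libraries. Such a ratio does not depend on how libraries are scaled. The log2 ratio of the leading short transcript to the summed long ones was -2.69 to -2.04 after saline in the NAc, with a mean of -2.25 ± 0.205 (SD, n = 8). It was -1.38 to -1.09 after haloperidol, -1.76 to -1.06 after methamphetamine and -1.86 to -1.53 after risperidone, all above the saline range. These are rises of 1.07, 0.86 and 0.59 (two-sided exact permutation p = 0.00202, the smallest for n = 4 against 8, adjusted p = 0.00606). Ketamine differed by 0.34 and venlafaxine by 0.25, both overlapping saline (adjusted exact permutation p = 0.0727, n = 4 against 8), and mianserin differed by 0.10 (0.465).

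In the PFCx the Homer1 ratio was -1.97 to -1.43 after saline and -1.32 to -0.74 after methamphetamine, a rise of 0.75 without overlap (adjusted exact permutation p = 0.00606, n = 4 against 8). Haloperidol gave -1.64 to -1.26, a rise of 0.34 that overlapped saline (adjusted exact permutation p = 0.0339, n = 4 against 8). That call was lost in 8 of the 12 fits that left out 1 library, among them haloperidol replicate 1 (0.30) and replicate 4 (0.29) and each of the 4 libraries of saline set I (0.31 to 0.34). It was lost as well with saline set II replicate 1 or replicate 2 left out (0.34 and 0.33). Ketamine differed by 0.28 (adjusted exact permutation p = 0.0525, n = 4 against 8), risperidone by 0.07, mianserin by 0.14 and venlafaxine by 0.12. Against the own saline set the 3 NAc differences were 1.20, 0.99 and 0.71 and the PFCx differences 0.86 for methamphetamine and 0.45 for haloperidol, none overlapping saline. With 4 libraries against 4 the exact permutation p cannot go below 0.0286, and the adjusted p was 0.0686 for each.

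**Figure D3:**
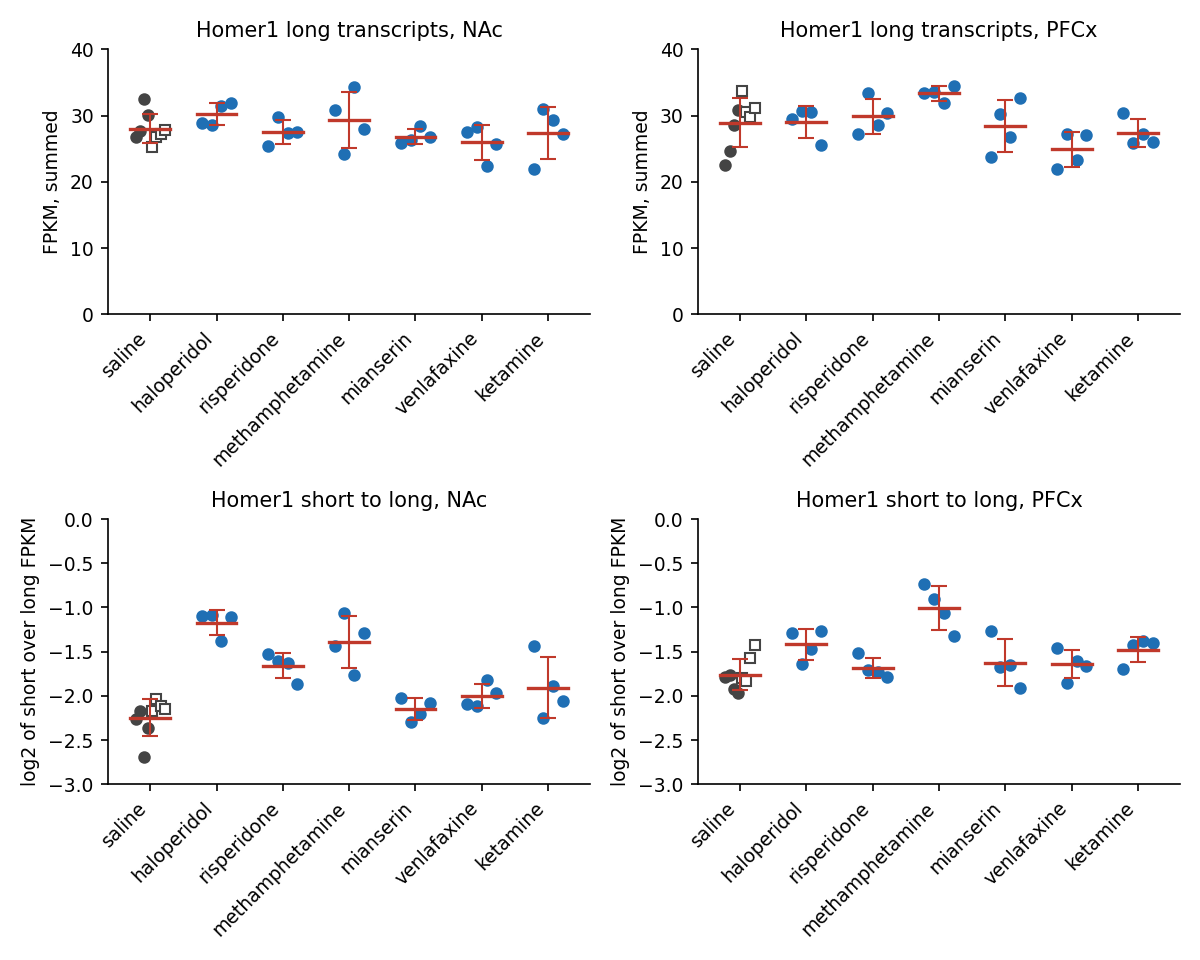
Summed FPKM of the 7 long Homer1 transcripts and log2 ratio of the leading short transcript to that sum, for each library of the NAc and PFCx by group, with symbols for saline set I (filled grey circles), saline set II (open squares) and drugs (blue) and the mean ± SD in red. The long sums overlap saline in every drug group, with means of 24.9 to 33.3 FPKM, while the NAc ratio rises from a mean of -2.25 after saline to -1.17 after haloperidol.

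As a share of the Homer1 signal (FPKM times length), the leading short transcript took 31.3% ± 2.24 (SD, n = 8) in the NAc after saline, the long transcripts 52.9% ± 2.21 and the second short pair 11.6% ± 1.04. Haloperidol moved the leading short transcript to 47.1% ± 2.66, methamphetamine to 42.7% ± 2.74 and risperidone to 39.6% ± 2.08, and the long share fell to 36.3%, 39.0% and 43.0% (all adjusted exact permutation p = 0.00606, n = 4 against 8). Ketamine moved it to 35.8%, with some overlap (adjusted exact permutation p = 0.0283, n = 4 against 8). The ketamine call was lost in 5 of the 12 fits that left out 1 library, namely ketamine replicate 1 or 3, saline set I replicate 1 or 4 or saline set II replicate 1, where the rise was 3.15 to 4.56 percentage points. It was lost as well with shares of FPKM not multiplied by length (adjusted exact permutation p = 0.0697, n = 4 against 8). Mianserin left it at 31.5% and instead had a higher share of the full-length transcript, 29.1% against 23.5%, with no overlap (adjusted exact permutation p = 0.00606, n = 4 against 8).

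In the PFCx the leading short Homer1 transcript took 38.7% ± 2.78 (SD, n = 8) after saline and the long ones 46.6% ± 3.32. Methamphetamine moved these shares to 50.4% ± 3.09 and 34.9% ± 2.63 (adjusted exact permutation p = 0.00606 each, n = 4 against 8). Haloperidol moved them to 45.4% and 40.7%, with some overlap (adjusted exact permutation p = 0.0097 and 0.0436, n = 4 against 8). The call on the long share was lost in 9 of the 12 fits that left out 1 library, namely haloperidol replicate 1, 2 or 4, any library of saline set I or saline set II replicate 2 or 3, where the difference was -6.40 to -4.87 percentage points. With shares of FPKM not multiplied by length it was lost too (adjusted exact permutation p = 0.315, n = 4 against 8). Against the own saline set, with 4 libraries a side, the smallest adjusted exact permutation p for a share was 0.0571, so that no share passed. Shares within a gene add up, so a higher share of 1 transcript lowers the rest.

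**Figure D4:**
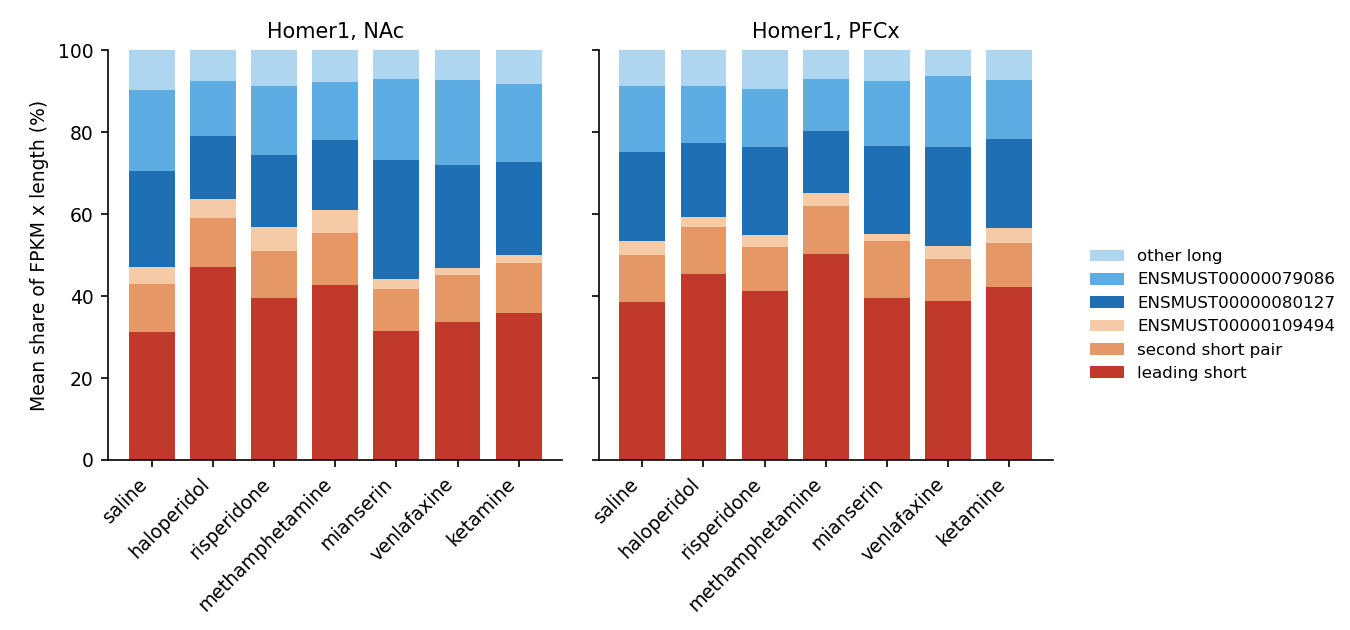
Mean share in percent of each Homer1 transcript group in the Homer1 signal (FPKM times length), stacked by treatment for the NAc and PFCx, with all 8 saline libraries as 1 bar. The leading short transcript grows from 31.3% after saline to 47.1% after haloperidol in the NAc and from 38.7% to 50.4% after methamphetamine in the PFCx.

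As a gene, Homer1 was the most abundant of the 3. Its summed FPKM was 43.1 ± 2.26 (SD, n = 8) in the NAc and 49.4 ± 7.37 in the PFCx after saline. Haloperidol libraries of the NAc gave 53.7, 61.4, 58.5 and 62.1 and methamphetamine libraries 55.6, 51.3, 61.6 and 51.9, all above the 38.6 to 46.7 of saline. The log2 differences were 0.44 (limma adjusted p = 0.000218) and 0.34 (0.0135), which made Homer1 the 1 called of 3 Homer genes, against 0.721% and 0.194% of 37034 genes. In the PFCx methamphetamine gave 71.3, 67.1, 61.9 and 68.7 against 40.2 to 57.7 after saline, a difference of 0.45 (0.00866), again 1 of 3 against 0.351%. In the other comparisons 0 of 3 Homer genes were called, beside 0.729%, 1.84%, 1.83% and 1.97% for risperidone, mianserin, venlafaxine and ketamine in the NAc and 0.162%, 0.51%, 0.667%, 0.0054% and 0.0162% for haloperidol, risperidone, mianserin, venlafaxine and ketamine in the PFCx. The NAc methamphetamine call was lost without methamphetamine replicate 1 (0.34, adjusted p = 0.0615) or replicate 3 (0.29, 0.109), and the PFCx call without methamphetamine replicate 1 (0.42, 0.0621). With the own saline set, haloperidol in the NAc (0.42) and methamphetamine in the PFCx (0.64) stayed called, methamphetamine in the NAc did not (0.32), and venlafaxine in the PFCx was lower (-0.37, limma adjusted p = 0.00858). The backgrounds of these 4 comparisons were 0.235%, 0.159%, 0.0891% and 0.74% of genes. The rescaling to the 75th percentile of values above 0 shifted the median log2 difference of all genes in the NAc to between -0.19 (haloperidol, methamphetamine and risperidone) and 0.22 (venlafaxine). Under it the Homer1 sum turned to -0.09 after haloperidol (limma adjusted p = 0.68) and -0.14 after methamphetamine (0.504) in the NAc, both above the shifted median, and venlafaxine (0.50, 0.034) and ketamine (0.53, 0.0334) were called there. The methamphetamine call in the PFCx was lost (0.43, 0.0534). The saline sets of the PFCx had Homer1 sums of 42.9 and 55.9 FPKM (exact permutation p = 0.0286, n = 4 against 4).

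Homer2, a long coiled-coil member on the minus strand of chromosome 7, was far lower in the NAc than in the PFCx. After saline the NAc libraries summed to 1.17 to 2.04 FPKM and the PFCx libraries to 4.49 to 5.72, with no overlap. The means were 1.56 ± 0.276 and 5.34 ± 0.414 FPKM (SD, n = 8 each), a log2 difference of -1.31 ± 0.07 (SE, limma adjusted p = 1.06e-10). It was the 1 called of 3 Homer genes in this comparison, beside 33.9% of all genes, and 2 of 18 Homer transcripts were called beside 13.7% of all transcripts. These were the leading short Homer1 transcript and the Homer2 transcript ENSMUST00000026922, at -1.27 (0.0015). The excitatory cortical markers were also lower in the NAc, and their part in the Homer2 difference was not tested. Homer1 as a gene differed by -0.18 (adjusted p = 0.0854) and Homer3 by 0.01 (0.966).

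Homer2 passed the limma test after no drug. In the NAc the highest Homer2 sums were after ketamine, 2.09 ± 0.421 FPKM (SD, n = 4), and haloperidol, 2.06 ± 0.180, both with a log2 difference of 0.27 (adjusted p = 0.0895 and 0.15). In the PFCx mianserin had the lowest mean, 4.67 ± 0.290 FPKM, with a log2 difference of -0.16. Over the 6 drugs the Homer2 sum was called in 0 of 6 comparisons in each tissue, with 2 in the NAc and 1 in the PFCx at an unadjusted p under 0.05. The 2 Homer2 transcripts were called in 0 of 12 comparisons in each tissue, with 0 and 1 at an unadjusted p under 0.05. These unadjusted counts are not set beside the share of all features and say nothing particular to Homer2.

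The 2 Homer2 transcripts, ENSMUST00000026922 (343 codons) and ENSMUST00000098326 (290 codons), have deposited lengths of 10999 and 10982 bases and share the end at chr7:81600481. Their split varied widely between NAc libraries and was close to all or none in part of them. ENSMUST00000026922 took under 1% of the Homer2 signal in 4 of 32 NAc libraries and over 90% in 15. After saline its share was 71.3% ± 44.0 (SD, n = 8) in the NAc and 71.9% ± 17.2 in the PFCx. No share differed from saline after a drug (lowest adjusted exact permutation p = 0.886, n = 4 against 8), and a spread of this size leaves little that could have been detected.

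Homer3, on the plus strand of chromosome 8, is best known from cerebellar Purkinje cells and was low in both tissues. After saline its sum was 1.69 ± 0.464 FPKM (SD, n = 8) in the NAc and 1.67 ± 0.513 in the PFCx. Group means after the drugs were 1.38 to 1.75 FPKM in the NAc and 1.21 to 1.83 in the PFCx, and every group overlapped saline. The Homer3 sum was called in 0 of 6 limma comparisons in each tissue, with 0 at an unadjusted p under 0.05. The 6 tested Homer3 transcripts were called in 0 of 36 comparisons in each tissue, with 4 in the NAc and 3 in the PFCx at an unadjusted p under 0.05. These unadjusted counts are not set beside the share of all features and say nothing particular to Homer3. The summed level of 3 Purkinje markers was 10.4 to 19.2 FPKM in the NAc and 9.32 to 16.3 FPKM in the PFCx. Most of this sum was Calb1, with means of 14.71 FPKM in the NAc and 12.02 FPKM in the PFCx. The means in the NAc and PFCx were 0.7645 and 0.8592 FPKM for Pcp2 and 0.199 and 0.3026 FPKM for Ppp1r17.

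A pair of full-length models took most of the Homer3 signal. ENSMUST00000003669 and ENSMUST00000110124, both with 359 codons, held 49.9% ± 33.7 and 30.03% ± 34.4 (SD) over the 32 NAc libraries, and each fell under 1% in some, 6 and 13 libraries. After risperidone in the NAc ENSMUST00000003669 held 1.79% ± 2.75 (n = 4) against 57.2% ± 38.7 after saline (exact permutation p = 0.0465, adjusted 0.404, n = 4 against 8). ENSMUST00000140212 (356 codons), ENSMUST00000087467 (122 codons) and the retained-intron models ENSMUST00000155711, ENSMUST00000143528 and ENSMUST00000135692 had mean shares of 1.56% to 8.55% in the NAc. ENSMUST00000135368 was listed at 0 in 30 of 32 libraries of each tissue. ENSMUST00000140212 and ENSMUST00000135368 did not reach the mean FPKM needed for testing.

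**Figure D5:**
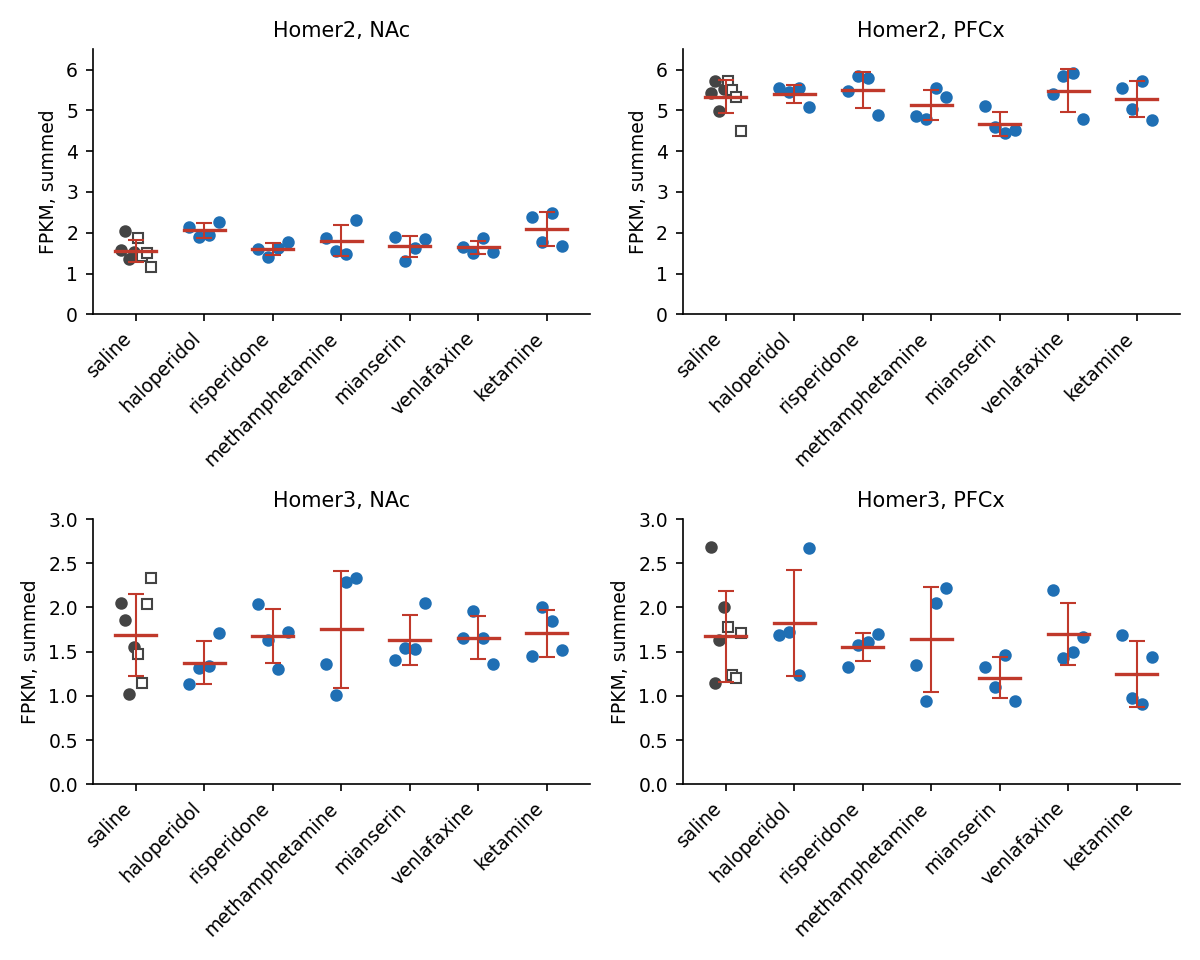
Summed FPKM of Homer2 and of Homer3 in each library of the NAc and PFCx by group, with saline set I as filled grey circles, saline set II as open squares, drug libraries in blue and the mean ± SD in red. Homer2 lies at 1.17 to 2.04 FPKM in the NAc and 4.49 to 5.72 in the PFCx after saline, Homer3 has means of 1.69 and 1.67, and the drug groups overlap saline.

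Among genes of Homer binding partners and of proteins linked to them, Dlgap4 and Dlg4 passed the test after a drug. A list of 25 genes held the receptor Grm5, the scaffolds Shank1 to Shank3, Dlgap1 to Dlgap4 and Dlg4, the inositol trisphosphate and ryanodine receptors, Trpc1 and other binding or signalling partners, and all 25 were tested. With haloperidol and methamphetamine, 0 of 25 were called in either tissue, and their median log2 differences were 0.05 and 0.03 in the NAc beside -0.05 over all genes for both. Dlgap4, a scaffold that links Dlg4 to Shank, was 26.5 ± 3.23 FPKM (SD, n = 8) after saline in the NAc, higher after risperidone at 34.1 ± 1.57 (log2 difference 0.36, limma adjusted p = 0.035) and lower after venlafaxine at 21.0 ± 2.17 (-0.32, 0.0465). Dlg4, which encodes PSD-95, was 115 ± 12.4 FPKM after saline and 139 ± 11.7 after ketamine (0.28, 0.0445). In the remaining comparisons 0 of 25 were called. With 0.0054% to 1.97% of all genes called in the 12 comparisons, counts of 0 or 1 in 25 are near the background and say nothing particular to the partners. With the own saline set 0 of 25 were called in any comparison, beside 0.0081% to 2.01% of all genes. Against all 8 saline libraries, the medians over the list ran from -0.02 to 0.07 and those over all genes from -0.05 to 0.05.

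Immediate early genes, which neurons transcribe within minutes of activity, were read beside the short Homer1 transcript. Of 8 (Fos, Fosb, Junb, Egr1, Egr2, Arc, Nr4a1 and Npas4), 7 rose after haloperidol, risperidone and methamphetamine in the NAc, all but Npas4, with medians over the list of 1.69, 0.74 and 1.05. Of all genes, 0.721%, 0.729% and 0.194% were called there. In the PFCx methamphetamine raised 6, with a median of 0.80, beside 0.351% of all genes. In these 4 comparisons the short Homer1 transcript was called as well. Haloperidol and risperidone raised 5 each in the PFCx and mianserin 4, with medians of 0.62, 0.55 and 0.64, in comparisons where no Homer1 transcript and 0.162%, 0.51% and 0.667% of all genes were called. With the own saline set haloperidol raised 3 in the PFCx, and the other counts above 0 were 2 to 7, beside 0.0216% to 2.01% of all genes. Mianserin raised 3 and ketamine 2 in the NAc, where 1.84% and 1.97% of all genes were called. Venlafaxine lowered Arc, Junb and Nr4a1 in the NAc, by 0.58, 0.60 and 0.55 on the log2 scale, beside 1.83% of all genes called in either direction, and 0 with the own saline set. Ketamine and venlafaxine changed 0 of the 8 in the PFCx. Arc, which encodes a synaptic protein, rose by 1.84 ± 0.11 (SE) after haloperidol in the NAc and by 1.83 ± 0.15 after methamphetamine in the PFCx.

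The transcripts whose levels across libraries were most like those of the leading short Homer1 transcript included Fosb, Nr4a1 and Egr1 of this list and others outside it. Over the 32 NAc libraries and 25280 transcripts whose mean there reached 1 FPKM, the highest Pearson r were with Fosl2 (0.896), Fosb (0.895), Egr4 (0.878), Nr4a1 (0.868) and Shisa2 (0.849). Over the 32 PFCx libraries and 26082 transcripts they were with Ccnd2 (0.856), Egr1 (0.852), Trib1 (0.774), Ago3 (0.771) and Per2 (0.749). Of the Homer1 transcripts themselves, ENSMUST00000109493 had an r of 0.787 over the NAc libraries and 0.584 over the PFCx libraries, and the full-length ENSMUST00000080127 had -0.324 and 0.0752. These correlations are descriptions over libraries that share treatment groups and sample sets.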

How the data were processed

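Total RNA from both tissues was depleted of ribosomal RNA and made into libraries with an Ion Total RNA-seq kit. The authors mapped the reads to mm10 with TopHat2 2.0.1 and then Tmap and estimated transcript levels on the Ensembl annotation with Cufflinks 2.2.1. The deposited tables, 1 per library, hold FPKM with 95% bounds, the coverage of each transcript and its length and locus. How reads that map to several places were shared was not given in the sources used here. Where transcripts overlap, FPKM is an estimate of how shared reads divide.

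Here FPKM was summed per gene, and FPKM times length gave shares within a gene. Drug groups were compared with all 8 saline libraries of the tissue by limma 3.58.1 (R 4.3.3) on log2(FPKM + 1), over 86331 transcripts or 37034 genes, called at a Benjamini-Hochberg adjusted p under 0.05. Responses were compared between tissues in 1 model over both. The 6 comparisons in a tissue share their saline libraries. Ratios, shares and summed classes were tested by two-sided exact permutation of libraries (495 splits for 4 against 8, 70 for 4 against 4), adjusted over 12 comparisons. The limma script was tested on simulated data. The saline labels name 2 sets, and each drug was assigned to a set by its number of NAc transcripts above 0, in both tissues. Between groups, same-number correlations of deviations had a median of 0.036 in each tissue, against -0.012 (NAc) and -0.0093 (PFCx) for other numbers. They reached 0.21 in the NAc and 0.44 in the PFCx, where 16 of 112 and 30 of 112 exceeded 0.1. The main fits did not pair libraries by replicate number. Alternatives were another pseudocount, filter, scaling, saline set, variance trend, ratio denominator, a replicate block and leaving out each library.

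Named were all Homer transcripts, partner genes that passed in any comparison, 8 immediate early genes and the 5 genes per tissue most correlated with the leading short Homer1 transcript. The members and lists were chosen with earlier results of these data known, and an item of the partner list is not reported here. Exons and codons are from GENCODE vM21, on the same build, whose lengths differ from the deposited ones for ENSMUST00000079086, ENSMUST00000109492, ENSMUST00000109493 and ENSMUST00000026922. Python 3.11.15, numpy 2.4.6, pandas 2.3.3, scipy 1.17.1 and matplotlib 3.10.9 were used.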

Additional observations from a re-analysis of the deposited data

Results flagged for a closer look

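Of 98 groups of 4 or 8 libraries, 3 held a library far from the rest by Dixon's criterion, which chance alone gives in about 1 group of 20. For the leading short Homer1 transcript, NAc methamphetamine replicate 3 had 10.11 FPKM and the other 3 libraries 11.4 to 11.64. For the summed second short Homer1 pair, NAc ketamine replicate 2 had 5.776 FPKM against 10.39 to 10.69, and PFCx haloperidol replicate 3 had 8.704 FPKM against 12.76 to 13.08.

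In the main fit, the haloperidol response of the leading short Homer1 transcript differed between tissues, by 0.7424 on the log2 scale (NAc minus PFCx, limma interaction adjusted p = 0.00255). With the saline of the own set it was 0.597 (0.0716).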

How the results depend on the processing

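The leading short Homer1 transcript was called in all 13 settings after haloperidol in the NAc (0.73 to 1.17 on the log2 scale) and after methamphetamine in the PFCx (0.69 to 1.09), and in 12 after risperidone and methamphetamine in the NAc, where the 75th percentile scaling gave 0.211 (adjusted p = 0.44) and 0.537 (0.234). That scaling called ketamine in the NAc (0.4957, 0.049), lost the tissue difference in the haloperidol response (0.4507, 0.383), called the Homer1 gene lower in the NAc than in the PFCx after saline (-0.6134, 0.0263), the Homer2 sum in 3 comparisons and another Homer1 transcript in 1, and reversed the Homer1 sum in the NAc after haloperidol (-0.08638), methamphetamine (-0.1409) and venlafaxine (0.497). The cause was not tested. The scaling over transcripts of a mean FPKM of at least 1, chosen after seeing the data, gave the tissue difference as 0.7306 (0.06), and the own saline set gave 0.5968 (0.0716). With saline set I alone, the tissue difference of the short transcript after saline was -0.3175 (0.0587). Ketamine was then called in the NAc (0.3125, 0.0192) and PFCx (0.3882, 0.0359). The ratios after venlafaxine in the NAc (0.3721) and ketamine in the PFCx (0.3864) passed. ENSMUST00000109494 was called in 2 comparisons, NAc venlafaxine and NAc ketamine. Both drugs had been assigned to set II, so these drug results also hold the difference between the saline sets. With the own saline set and the replicate block, NAc ketamine differed by 0.2022 (limma adjusted p = 0.554) for the short transcript. PFCx ketamine differed by -0.01329 (0.987), and neither was called. With set II alone, the Homer1 gene differed by -0.3944 between tissues (0.00191), the Homer2 sum was called in 1 comparison, Homer1 transcripts other than the leading short one in 3 and a Homer3 transcript in 1, and the ratios were 0.948, 0.4607 and 0.7331 after haloperidol, risperidone and methamphetamine in the NAc and 0.6499 and 0.2404 after methamphetamine and haloperidol in the PFCx. The own saline set gave 1.202, 0.7145, 0.9869, 0.8561 and 0.4466. None of these 10 ratios passed, and in designs of 4 against 4 the exact p cannot go below 0.0286. With all other Homer1 transcripts as denominator the ketamine ratio in the PFCx passed (0.2926), and with a mean FPKM of at least 1 required, ENSMUST00000109493 did in 2 comparisons. The replicate block lost 4 of 22 calls made by permutation and gained 0 of 108. Lost were the haloperidol ratio (0.3435, adjusted p = 0.0889) and long share (0.0889) in the PFCx and the haloperidol and methamphetamine sums of the second short pair in the NAc (0.148 each). Swaps within blocks allow fewer splits, so the smallest exact p is larger than without the block. A loss or a lack of gains under it therefore says little about a call. In the limma fits the block changed no call of the leading short transcript or of the 3 gene sums. Leaving out each library gave -0.219 to -0.146 for the Homer1 gene between tissues, passing without PFCx saline set I replicate 1 or 2, and 0.1813 to 0.2831 for the ratio after venlafaxine in the NAc, which passed without saline set I replicate 3 or set II replicate 2. It gave 0.1792 to 0.4505 for ketamine in the NAc, which passed without ketamine replicate 2 or saline set II replicate 2, 0.2503 to 0.3561 for ketamine in the PFCx, which passed without ketamine replicate 1 or saline set II replicate 3 or 4, and 0.2927 to 0.4188 for haloperidol in the PFCx. Summed over the 6 drugs, 1002 NAc and 556 PFCx transcripts were called, against 23037 and 2774 with saline set I, 15891 and 14972 with set II, 593 and 1474 with the own set, and 595 and 1627 with the block added. In the NAc no filter gave 2499 and the 75th percentile scaling 5705, of which 5386 were higher against 680 of 1002. In the PFCx a pseudocount of 0.1 gave 316. The own set with the scaling over the higher transcripts gave 558 and 1764. Libraries were few, and the deposited bounds of ENSMUST00000109498 were in the median wider than the value itself.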
